A study of Fundulus heteroclitus with 6 samples.

Results

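The isogroups described here are the abundant transcript groups that all 4 libraries of 10-dpf killifish embryos had in common. An isogroup is a set of assembled contigs that share reads and are taken to come from 1 gene. An isogroup was a member when each library held 100 or more of its reads, with blank cells of the table read as 0. Of 22732 isogroups in the deposited table, 101 (0.444%) met this rule, and 22571 had at least 1 read in some library. The members were thus chosen on their read counts, so their levels and the ratios between libraries are given as a description, without a test.

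Atlantic killifish (*Fundulus heteroclitus*) embryos came from Scorton Creek (SC), the reference site, and from New Bedford Harbor (NBH), a harbor contaminated with PCBs. Embryos of each population received the solvent DMSO (0.1%) or 50 nM PCB-126 and were sampled as whole embryos at 10 dpf (days post-fertilization). The 4 groups were SC with DMSO, SC with PCB-126, NBH with DMSO and NBH with PCB-126. By the methods the exposure lasted 1 h and began at 4 hpf (hours post-fertilization), and by the sample labels it lasted 6 h. For each site, eggs of 8 females were fertilized with the testes of 5 males that had been caught there, so all embryos of a population came from few parents. Equal amounts of RNA from 3 pools of 20 embryos went into a library, and there was 1 library per group. A difference between 2 libraries therefore has no replicate check, and the library and the group cannot be told apart. In whole embryos, fewer cells of a type and less RNA per cell also cannot be told apart.

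PCB-126 acts like dioxin through a transcription factor, the aryl hydrocarbon receptor. When bound, the receptor induces genes such as those of the cytochrome P450 1 family, and fish of contaminated sites can be resistant to these effects. In animal embryos at the stage of organ formation, the most abundant polyadenylated transcripts commonly encode ribosomal proteins, translation factors, proteins of the cytoskeleton and of muscle, and subunits of the respiratory chain. The table does not pair isogroups with gene names, and none of its IDs was found in the reference gene table, so no member is given a gene, a function or a sequence here. The tissue could not be checked with marker genes for the same reason.

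The counts summed to between 95410 reads (NBH with DMSO) and 132893 reads (SC with PCB-126). Levels and shares are taken over these uniquely matching reads, not over all reads that were sequenced. Levels are given as reads per 100000 reads of the library so counted. All intervals are exact 95% intervals that cover counting error only, since there is 1 library per group. They take 1 read as 1 independent molecule, which is not shown, so they can be too narrow. A count of 0 was taken to allow up to 3 reads, a level of 2.26 to 3.14 reads per 100000 in a library. This is an approximate upper limit and not one of the exact intervals.

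The 101 members held a like share of every library. Their share was 28.8% of the reads of SC embryos with DMSO (95% interval 28.5% to 29.0%, Clopper-Pearson) and 27.8% of those of SC embryos with PCB-126 (27.5% to 28.0%). It was 29.9% in NBH embryos with DMSO (29.6% to 30.2%) and 28.5% in NBH embryos with PCB-126 (28.3% to 28.8%). The share was lower with PCB-126 than with DMSO in both populations, with a ratio of 0.965 in SC (95% interval 0.951 to 0.979) and of 0.955 in NBH (0.940 to 0.970). The rule bears on the highest of these shares. The library of NBH with DMSO was the shallowest, so that 100 reads stood for a level of 104.8 there, against 75.2 in SC with PCB-126. With a minimum of 100 reads per 100000 in each library, an alternative chosen after seeing the data for the shares, 88 isogroups qualified. The shares were then 27.4% and 26.4% in SC (DMSO and PCB-126) and 28.1% and 27.0% in NBH, in the same order between treatments.

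The reads were spread over the members unevenly. The 10 members of highest mean level held 7.27% to 8.50% of a library, and between 23 and 24 members held 50% of the members' reads in each library. The highest member level of a library was 1016 to 1421 reads per 100000, the median was 194.4 to 202.3, and the lowest was 79.0 to 105.9. The other 22631 isogroups had on average 2.96 to 4.24 reads each per library.

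**Figure D1:**
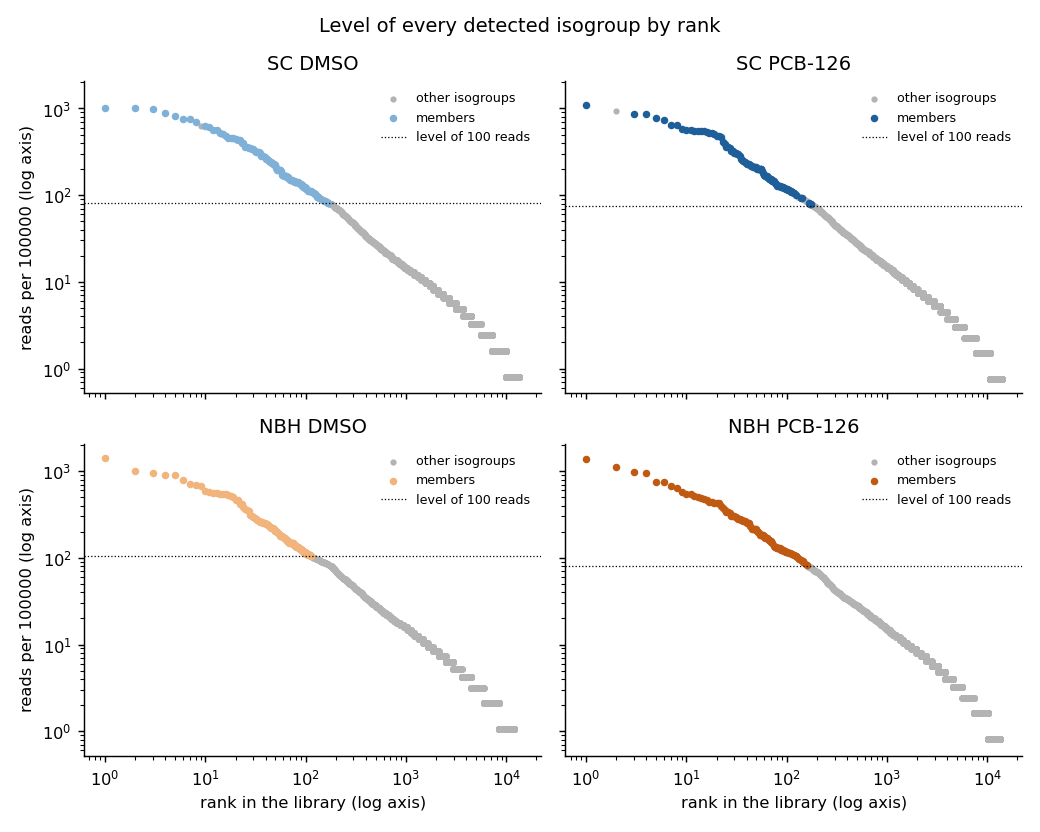
Level of each detected isogroup (reads per 100000, log axis) by its rank in the library (log axis), in 4 panels for the 4 libraries. Coloured points are the 101 members, grey points the other isogroups, and the dotted line marks the level of 100 reads. Members fill nearly all of the first ranks, which follows largely from the rule, and 1 grey point stands at rank 2 in SC embryos with PCB-126.

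The first ranks were held almost entirely by members. This follows largely from the rule, since only 112 (NBH with DMSO) to 186 (SC with PCB-126) isogroups had 100 or more reads in a library. Of the 10 isogroups of most reads, 9 were members in each SC library and 10 were members in each NBH library. Of the 50 of most reads, 48 to 50 were members, and of the 100 of most reads, 85 to 93. In all, 15 isogroups stood among the first 10 of some library, of which 14 were members, and 6 stood there in all 4 libraries. The exception was isogroup00010, which was looked at because of its rank. It had 781 reads in SC with DMSO and 1233 in SC with PCB-126, but 55 in NBH with DMSO and 37 in NBH with PCB-126. It ranked 9 and 2 in the SC libraries and 238 and 453 in the NBH libraries. Its level in NBH was 10.9-fold lower than in SC with DMSO (95% interval 8.31 to 14.6) and 31.0-fold lower with PCB-126 (22.4 to 44.2). It thus missed the rule by its NBH counts alone.

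The most abundant member was isogroup18445, with 1246 reads in SC with DMSO, 1476 in SC with PCB-126, 1356 in NBH with DMSO and 1698 in NBH with PCB-126. Among the counted isogroups it ranked first in all libraries other than SC with DMSO, where it ranked 2. Its level was higher in both NBH libraries (1421 and 1373 reads per 100000) than in both SC libraries (1005 and 1111). The ratio of NBH to SC was 1.41 with DMSO (95% interval 1.31 to 1.53) and 1.24 with PCB-126 (1.15 to 1.33). In the paper's search of these reads with array probes, the probe of CYP1A matched more reads in SC with PCB-126 than isogroup18445 had. CYP1A is a gene of the cytochrome P450 1 family. No isogroup has that many reads here, so the ranks and shares hold for the counted isogroups only.

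Isogroup09118 had 1260 and 1148 reads in the SC pair (DMSO first, then PCB-126, here and for the members that follow) and 864 and 1384 in the NBH pair. It was the isogroup of most reads in SC with DMSO. Its highest level was in NBH with PCB-126, at 1119 reads per 100000, and its lowest in SC with PCB-126, at 863.9.

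Isogroup00015 was the steadiest of the 10 most abundant members, with 1236 and 1145 reads in the SC pair and 904 and 1188 in the NBH pair. Its levels ran from 861.6 to 996.8 reads per 100000, a highest to lowest ratio of 1.16, and it ranked 3 or 4 among the members in every library.

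Isogroup14253 had 1006 and 1030 reads in the SC pair and 958 and 1213 in the NBH pair. Its level was higher in both NBH libraries (1004 and 981.0 reads per 100000) than in both SC libraries (811.3 and 775.1). The same order was seen for isogroup00030, with 868 and 846 reads in the SC pair and 866 and 928 in the NBH pair, which are levels of 700.0 and 636.6 against 907.7 and 750.5. It was also seen for isogroup00076, with 781 and 733 reads in the SC pair and 677 and 823 in the NBH pair. No share over all isogroups is given for this order, here or for isogroup18445, so nothing is read from it.

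Isogroup00016 had 1097 and 862 reads in the SC pair and 761 and 939 in the NBH pair. Isogroup00014 had 931 and 688 reads in the SC pair and 537 and 672 in the NBH pair. In both members SC with DMSO was the highest library and SC with PCB-126 the lowest.

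Isogroup13292 had 934 and 749 reads in the SC pair and 535 and 790 in the NBH pair. Isogroup00179 had 692 and 978 reads in the SC pair and 653 and 625 in the NBH pair, so that it ranked 12 and 5 among the members in SC and 8 and 13 in NBH. With PCB-126 isogroup13292 was lower in SC (ratio 0.748) and higher in NBH (ratio 1.14), and isogroup00179 was higher in SC (ratio 1.32) and lower in NBH (ratio 0.739).

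**Figure D2:**
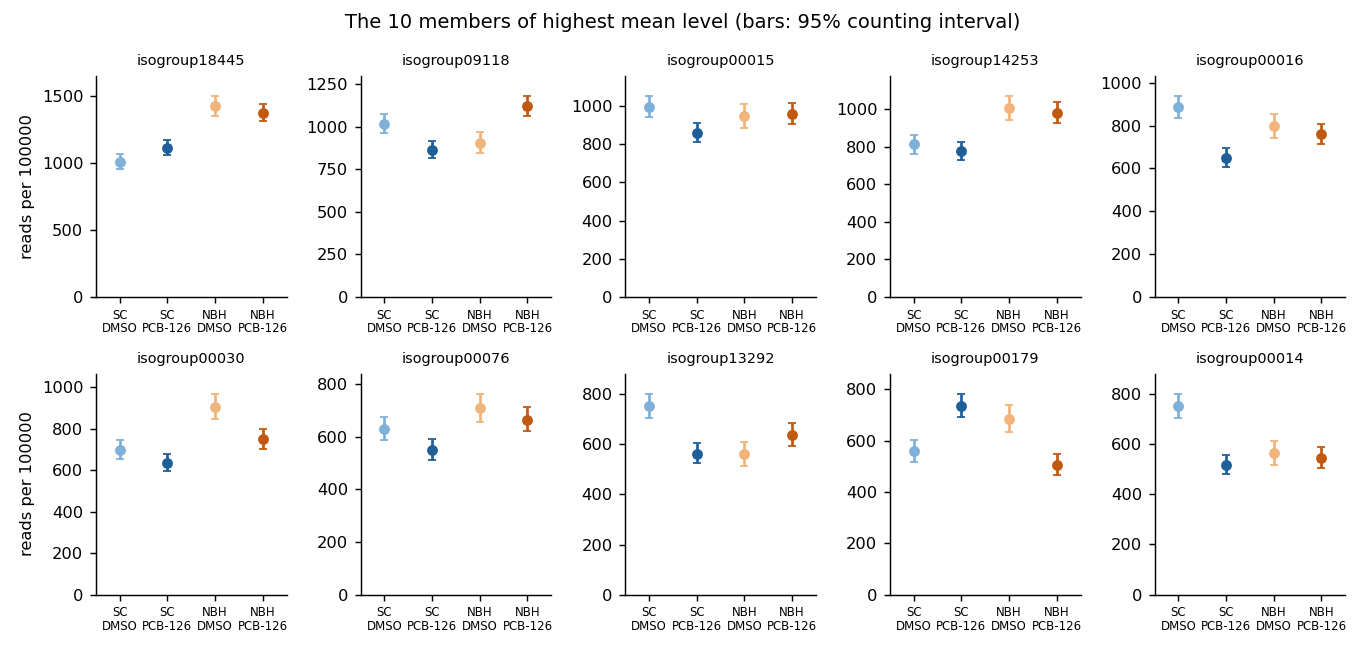
Level (reads per 100000, from 0) of the 10 members of highest mean level in the 4 libraries, 1 panel per isogroup. Points are single libraries and bars are exact 95% counting intervals. Isogroup18445 sat between 1005 and 1421 reads per 100000 and was higher in both NBH libraries.

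The rank order of the members was much alike between libraries. Across the 101 members, Spearman's rho of the reads was 0.876 between the SC libraries, 0.871 between the NBH libraries, 0.880 between the DMSO libraries and 0.850 between the PCB-126 libraries. The pairs that differed in both population and treatment had 0.868 (NBH with DMSO, SC with PCB-126) and 0.835 (NBH with PCB-126, SC with DMSO). Pearson's r of the log2 reads ran from 0.887 to 0.923 over these 6 pairs. These are descriptions across isogroups, which are not independent replicates and share the depth of a library. The members were chosen on these same counts, and the rule leaves out isogroups that are low in any library, such as isogroup00010. The likeness of the ranks is thus in part set by the rule. Of the members, 13 stood among the first 20 in every library and 28 among the first 20 of some library.

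Ranks moved more further down the list. The median distance between a member's best and worst rank was 18 places over all 101 members. It was 4 among the 10 most abundant, 17 among the next 40 and 23 among the 51 least abundant. The median highest to lowest ratio of the level was 1.35, 1.51 and 1.43 in the same order. The spread of the level thus did not rise in step with that of the rank. The distance in rank was at most 5 places for 7 members and above 50 places for 4. The latter were isogroup12791 (64 places, from 32 to 96) and, with 54 places each, isogroup00184, isogroup00385 and isogroup16632.

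Most members stayed within a factor of 2 over the 4 libraries. The ratio of a member's highest to its lowest level had a median of 1.43 and ran from 1.08 to 3.08. It was under 1.25 for 19 members, under 1.5 for 59 and at least 2 for 5. Of the isogroups of 20 or more reads in the 4 libraries, 79.6% had a ratio of at least 2, but a minimum in every library limits this ratio for the members. The coefficient of variation over the 4 libraries had a median of 16.1%, where counting error alone gives a median of 6.58%. It was below the value from counting error for 8 members and more than 2 times that value for 69. The 10 most abundant members had a median coefficient of variation of 13.7% against 3.35% from counting. The next 40 members had 17.2% against 5.20%, and the 51 least abundant had 16.1% against 7.93%.

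**Figure D3:**
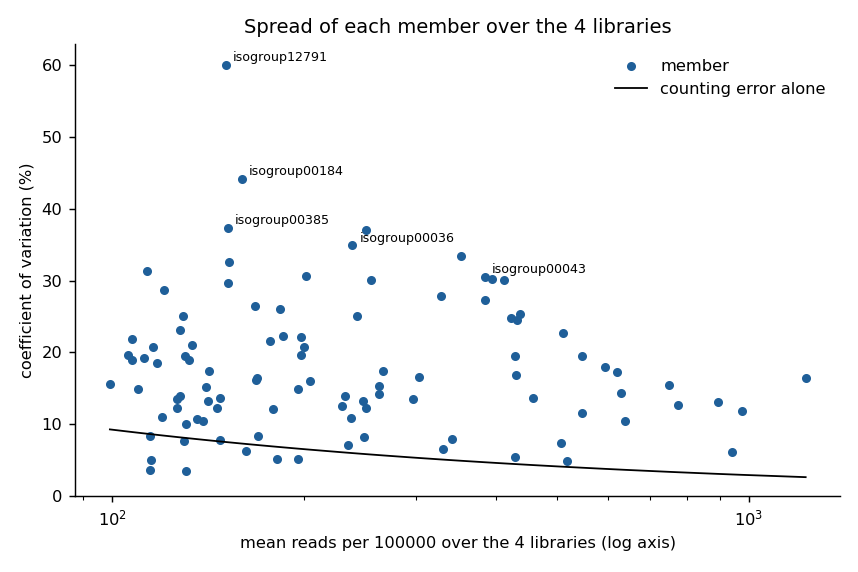
Coefficient of variation of each of the 101 members over the 4 libraries (%) against its mean level (reads per 100000, log axis). The line is the coefficient of variation from counting error alone, and the 5 named points are the members with a highest to lowest ratio of at least 2. Most points lie above the line, with medians of 16.1% observed and 6.58% from counting.

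The steadiest members were isogroup00033 and isogroup00156. Isogroup00033 had 162 reads in SC with DMSO, 165 in SC with PCB-126, 128 in NBH with DMSO and 165 in NBH with PCB-126. These are levels of 124.2 to 134.2 reads per 100000, a highest to lowest ratio of 1.08. Isogroup00156 had 140 and 159 reads in the SC pair and 105 and 144 in the NBH pair, with a ratio of 1.09. The spread of both was smaller than counting error alone gives on average, with coefficients of variation of 3.49% against 8.09% and 3.64% against 8.63%. Both were named for the smallest highest to lowest ratios of all members, so this follows in part from the choice.

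The comparison of PCB-126 with DMSO in SC embryos asks how transcripts of the sensitive population differed with treatment. Only 1 of the 101 members had a ratio of at least 2 in either direction. Over all isogroups of 10 or more reads in the pair, 48.1% were past this ratio. Among the other isogroups of like depth, those with at least 200 reads in the pair, 9.46% of 74 were. Since a member needed 100 reads in both libraries, the low count is in part set by the rule and nothing is read from it. The others with at least 200 reads fell short of 100 reads in some library. The rule thus bears on their shares as well, here and in the comparisons below. The 95% interval of the ratio lay above 1 for 23 members (background 17.6%) and below 1 for 36 (background 16.3%), and it included 1 for 42. Among the others with at least 200 reads it lay above 1 for 18.9% and below 1 for 23.0%. The lean towards lower levels depended on the scaling. It was kept with TMM library sizes, with 23 members above and 37 below 1. With DESeq2 size factors 30 members were above and 32 below 1. A ratio of 1.5 in either direction was passed by 17 members (background 65.8%, and 20.3% of the others with at least 200 reads). The median log2 ratio was -0.11 for the members, -0.06 with DESeq2 size factors, and 0.03 for the 4135 isogroups of 10 or more reads. The last value takes in isogroups of few reads and had 0.5 reads added to each count, unlike those of the members. The same holds for such medians in the comparisons below.

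Isogroup00043 had 531 reads in SC with DMSO and 280 in SC with PCB-126, against 447 and 534 in NBH. The SC library with PCB-126 was low and the other 3 were alike, at 210.7 against 428.2 to 468.5 reads per 100000. With PCB-126 its level in SC was 2.03-fold lower (95% interval 1.76 to 2.36). Expressed as a ratio this was 0.492, and 0.508 with DESeq2 size factors, so that no member was past the threshold of 2 in SC with that scaling.

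Isogroup00074 had 448 and 255 reads in the SC pair, a level 1.88-fold lower with PCB-126 (95% interval 1.61 to 2.20), and 247 and 256 reads in the NBH pair. SC with DMSO was its highest library.

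The highest ratio in SC was that of isogroup03925, which had 210 and 434 reads in the SC pair and 163 and 413 in the NBH pair. Its levels were 169.4 and 170.8 reads per 100000 in the DMSO libraries and 326.6 and 334.0 in the PCB-126 libraries, so that the 2 treatments did not overlap and the 2 populations were alike. The ratio was 1.93 in SC (95% interval 1.63 to 2.28) and 1.96 in NBH (1.63 to 2.36). Isogroup03925 was named for its high ratios, and no share over all isogroups is given for such a separation of treatments.

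Isogroup18540 had 391 and 701 reads in the SC pair, 1.67 times the level with PCB-126 (95% interval 1.48 to 1.90), and 256 and 372 reads in the NBH pair. Its level in SC with PCB-126, 527.5 reads per 100000, stood above the other 3 libraries, which lay between 268.3 and 315.3.

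In NBH embryos, the resistant population, 2 of the 101 members had a ratio of PCB-126 to DMSO of at least 2 in either direction. Past this ratio were 48.2% of the isogroups of 10 or more reads in the pair and 8.33% of the 36 others with at least 200 reads. The interval lay above 1 for 14 members (background 17.7%), below 1 for 23 (background 17.1%) and included 1 for 64. Among the others with at least 200 reads it lay above 1 for 33.3% and below 1 for 13.9%. These others can have missed the rule by a low count in NBH with DMSO, the shallowest library, so nothing is read from that difference. A ratio of 1.5 was passed by 12 members (background 66.5%, and 16.7% of the others with at least 200 reads). The median log2 ratio was -0.07 for the members, -0.03 with TMM, and 0.07 for the 3691 isogroups of 10 or more reads.

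Isogroup12791 had 139 and 123 reads in the SC pair and 107 and 353 in the NBH pair. The NBH library with PCB-126 stood apart, at 285.5 reads per 100000 against 92.6 to 112.1 in the other 3. This was the largest highest to lowest ratio of any member, 3.08. Its level was 2.55-fold higher with PCB-126 in NBH (95% interval 2.05 to 3.19), and it moved from rank 94 to rank 32 among the members.

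Isogroup00385 had 155 and 214 reads in the SC pair and 216 and 117 in the NBH pair. Its level was 2.39-fold lower with PCB-126 in NBH (95% interval 1.90 to 3.02) and had a ratio of 1.29 in SC (1.04 to 1.59). The 2 NBH libraries were its highest and its lowest, at 226.4 and 94.6 reads per 100000.

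Isogroup00383 was lower with PCB-126 in both populations. It had 241 and 151 reads in the SC pair and 187 and 130 in the NBH pair, which are levels of 194.4 and 196.0 reads per 100000 with DMSO against 113.6 and 105.1 with PCB-126. The ratio was 0.585 in SC (95% interval 0.474 to 0.719) and 0.536 in NBH (0.426 to 0.675). Isogroup00383 and isogroup03925 were the members of lowest and highest ratio on the mean of both populations.

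The ratios of the 2 populations, which share no library, were hardly related across the members. Pearson's r of the log2 ratios was 0.11 and Spearman's rho was 0.03 (n = 101 isogroups). The ratio was above 1 in both populations for 17 members, below 1 in both for 36, above 1 in SC alone for 26 and above 1 in NBH alone for 22. Taken singly, the ratio was below 1 for 58 members in SC and for 62 in NBH. No share over all isogroups is given for these directions, so nothing is read from these counts. Among members whose intervals excluded 1 in both, 6 were higher in both (background 2.39% of the isogroups of 10 or more reads in each population) and 8 lower in both (background 2.14%). A further 7 were higher in SC and lower in NBH (background 2.87%), and 3 the reverse (background 2.19%). An interval excludes 1 more easily with more reads, and these backgrounds are not at the depth of the members.

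**Figure D4:**
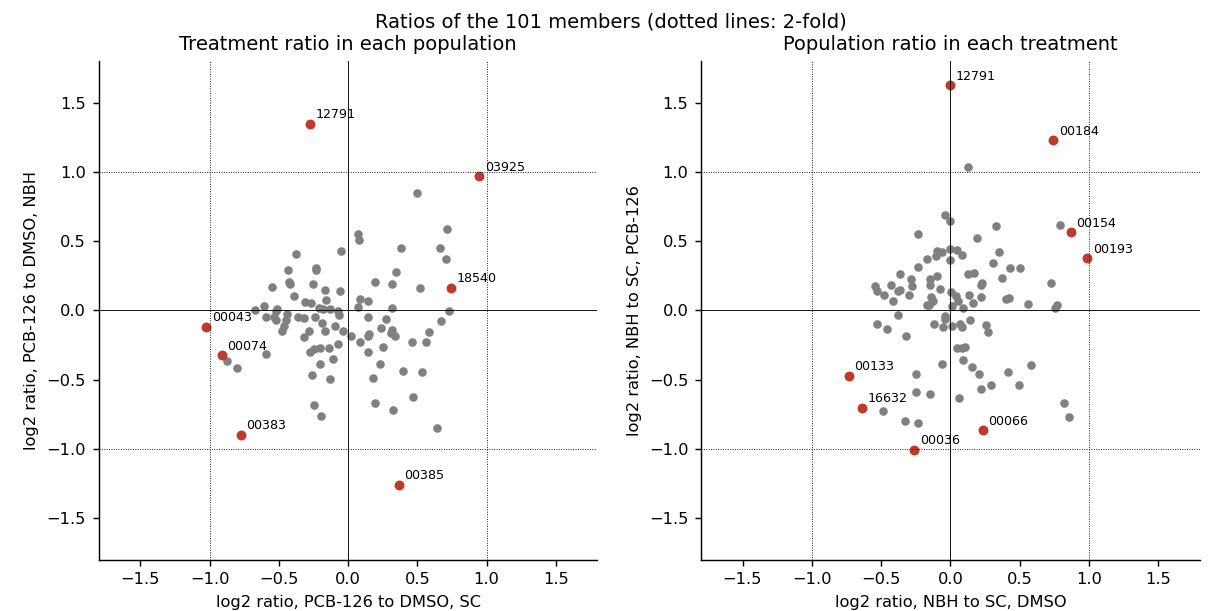
Log2 ratios of the 101 members. Left, PCB-126 to DMSO in SC against the same ratio in NBH. Right, NBH to SC with DMSO against the same ratio with PCB-126. Each point is 1 isogroup, dotted lines mark a 2-fold ratio, and red points are the named members of highest and lowest ratio (last 5 digits of the ID). Isogroup03925 lies near 1.0 on both axes on the left, with ratios of 1.93 and 1.96.

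The difference of the treatment ratio between the populations was described by the ratio of the SC ratio to the NBH ratio. Its interval lay above 1 for 23 members (background 13.0% of the isogroups of 10 or more reads in each population), below 1 for 28 (background 13.4%) and included 1 for 50, and its median was 1.00. It was at least 2 in either direction for 5 members (background 50.9%). Most isogroups of these backgrounds have fewer reads than the members, with wider intervals and more scattered ratios. The backgrounds are thus not at like depth, and nothing is read from the differences. The highest were isogroup00385, at 3.08 (95% interval 2.24 to 4.23), and isogroup00212, at 2.81 (2.33 to 3.39). Isogroup00212 had 386 and 645 reads in the SC pair and 525 and 377 in the NBH pair, so that the PCB-126 library was the higher in SC and the lower in NBH. The lowest were isogroup12791, at 0.324 (0.231 to 0.455), and isogroup00043, at 0.534 (0.439 to 0.649).

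Between the populations with DMSO, none of the 101 members had a ratio of NBH to SC of at least 2 in either direction. Past this ratio were 49.7% of the isogroups of 10 or more reads in the pair and 7.32% of the 41 others with at least 200 reads. The interval lay above 1 for 25 members (background 17.5%) and below 1 for 23 (background 17.6%). Among the others with at least 200 reads these shares were 12.2% and 39.0%. These others can have missed the rule by a low count in NBH with DMSO, so nothing is read from that difference. A ratio of 1.5 was passed by 11 members (background 67.1%, and 22.0% of the others with at least 200 reads). The median log2 ratio of the members was 0.01 with library totals and turned to -0.03 with TMM and -0.02 with DESeq2 size factors, so its sign depends on the scaling.

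Isogroup00193 had 176 and 221 reads in the SC pair and 269 and 267 in the NBH pair. Its levels were 141.9 and 166.3 reads per 100000 in SC against 281.9 and 215.9 in NBH, and the ratio of NBH to SC was 1.99 with DMSO (95% interval 1.64 to 2.42) and 1.30 with PCB-126 (1.08 to 1.56).

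Isogroup00154 had 101 and 135 reads in the SC pair and 142 and 186 in the NBH pair, with ratios of 1.83 (1.41 to 2.38) and 1.48 (1.18 to 1.86). In both of these members the NBH libraries were above the SC libraries without overlap. Since they were named for high ratios with DMSO, this follows in part from the choice. No share over all isogroups is given for it.

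Lowest in NBH with DMSO were isogroup00133 and isogroup16632. Isogroup00133 had 279 and 240 reads in the SC pair and 129 and 161 in the NBH pair, a level 1.66-fold lower in NBH with DMSO (95% interval 1.35 to 2.07). Isogroup16632 had 204 and 278 reads in the SC pair and 101 and 159 in the NBH pair. Its level was 1.55-fold lower in NBH with DMSO (1.22 to 1.99) and 1.63-fold lower with PCB-126 (1.33 to 1.99). In these 2 members the SC libraries were above the NBH libraries without overlap. Both were named for low ratios with DMSO, so this follows in part from the choice, and no share over all isogroups is given for it.

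Between the populations with PCB-126, 4 of the 101 members had a ratio of at least 2 in either direction, 3 higher and 1 lower in NBH. Past this ratio were 49.8% of the isogroups of 10 or more reads in the pair and 11.8% of the 68 others with at least 200 reads. The interval lay above 1 for 30 members (background 18.8%) and below 1 for 24 (background 17.9%). Among the others with at least 200 reads these shares were 25.0% and 22.1%. With TMM library sizes 30 members lay above and 24 below 1. With DESeq2 size factors 26 members lay above and 26 below 1, so that neither direction was the more frequent. A ratio of 1.5 was passed by 18 members (background 67.4%, and 30.9% of the others with at least 200 reads). The median log2 ratio was 0.09 for the members, 0.02 with DESeq2 size factors, and 0.02 for the 4234 isogroups of 10 or more reads.

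The highest ratios were those of isogroup12791, 3.08-fold higher in NBH (95% interval 2.51 to 3.82), and of isogroup00184, 2.34-fold higher (1.92 to 2.87). With DMSO, isogroup12791 had a ratio of 1.00. Isogroup00184 had 128 and 144 reads in the SC pair and 165 and 314 in the NBH pair, and was 1.68-fold higher in NBH with DMSO as well (1.32 to 2.13). Isogroup00043, whose SC library with PCB-126 was low, had a ratio of 2.05.

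The lowest ratios were those of isogroup00036 and isogroup00066. Isogroup00036 had 280 and 477 reads in the SC pair and 180 and 221 in the NBH pair. SC with PCB-126 was its highest library, at 358.9 reads per 100000 against 178.7 to 225.8, and its level was 2.01-fold lower in NBH with PCB-126 (95% interval 1.71 to 2.37). Isogroup00066 had 496 and 737 reads in the SC pair and 449 and 377 in the NBH pair, and was 1.82-fold lower in NBH with PCB-126 (1.60 to 2.06). With DMSO its ratio was 1.18, on the other side of 1.

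**Figure D5:**
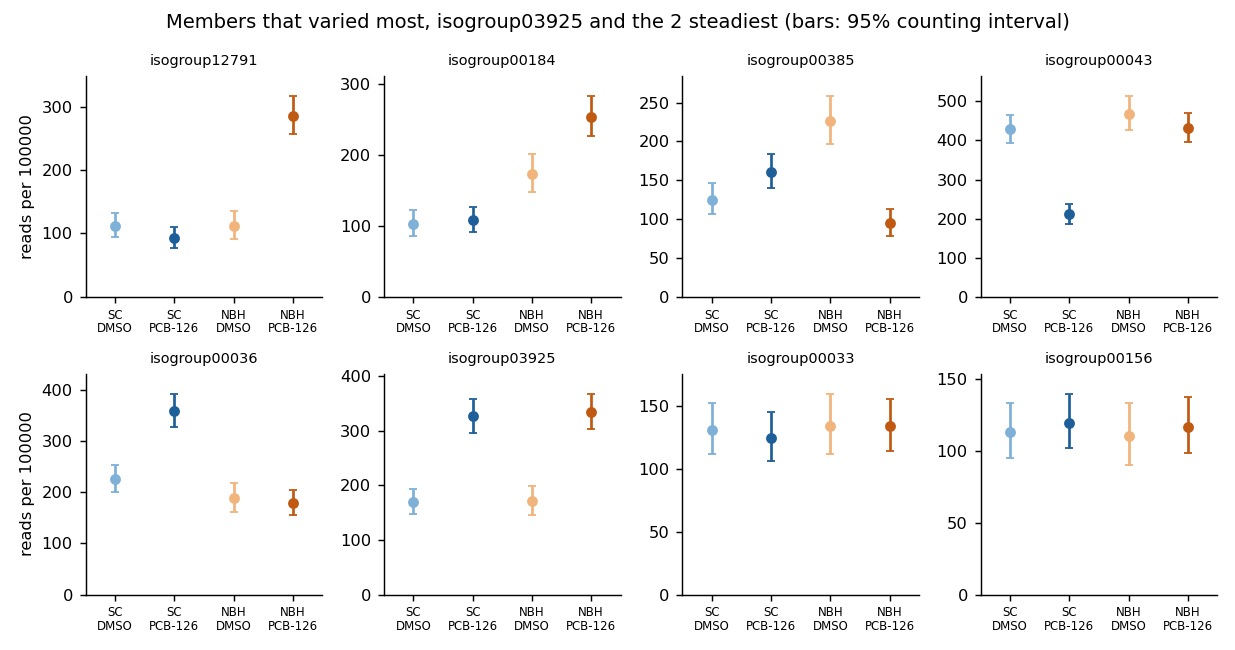
Level (reads per 100000, from 0) in the 4 libraries of the 5 members with a highest to lowest ratio of at least 2, of isogroup03925, and of the 2 steadiest members. Points are single libraries and bars are exact 95% counting intervals. Isogroup12791 stood at 285.5 in NBH with PCB-126 and at 92.6 to 112.1 elsewhere, whereas isogroup00033 kept to 124.2 to 134.2.

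The population ratios of the 2 treatments, which share no library, were also little related across the members, with a Pearson's r of 0.14 and a Spearman's rho of 0.10 (n = 101 isogroups). The level was higher in NBH with both treatments for 33 members, lower with both for 18 and in opposite directions for the other 50. Taken singly, it was higher in NBH for 54 members with DMSO and for 62 with PCB-126. No share over all isogroups is given for these directions, so nothing is read from these counts. Intervals excluded 1 with both treatments for 11 members higher in NBH (background 3.46% of the isogroups of 10 or more reads with each treatment), 6 lower in NBH (background 3.02%) and 12 in opposite directions (background 4.45%). These backgrounds too are not at the depth of the members, whose intervals are narrower.

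The 4 levels of a member can be split into a contrast of populations, a contrast of treatments and the difference of response between the populations, taken as the difference of the 2 log2 treatment ratios divided by 2 so that all have the same counting error. Over the 101 members the root mean square of the log2 contrast was 0.31 for population, 0.30 for treatment and 0.27 for the difference of response. Counting error alone gives 0.10. Expressed as a fold, these are 1.24, 1.23 and 1.20, against 1.07 from counting. The population contrast was the largest of the 3 for 36 members, the treatment contrast for 33 and the difference of response for 32. No share over all isogroups is given for this split, so it is not read as a trait of the members. With 1 library per group, differences between single libraries enter all 3 contrasts and cannot be told apart from population, treatment or response. The median contrast was -0.08 for treatment and 0.03 for population.

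The library in which a member stood highest was SC with DMSO for 29 members, SC with PCB-126 for 18, NBH with DMSO for 34 and NBH with PCB-126 for 20. The lowest library was SC with PCB-126 for 42 members, SC with DMSO for 21, NBH with DMSO for 10 and NBH with PCB-126 for 28. The rule asks for the highest level in the shallowest library, NBH with DMSO, and so bears on these counts. Among the 88 isogroups with at least 100 reads per 100000 in each library, the highest was SC with DMSO for 27, SC with PCB-126 for 17, NBH with DMSO for 29 and NBH with PCB-126 for 15. The lowest was SC with PCB-126 for 36 of them, SC with DMSO for 17, NBH with DMSO for 11 and NBH with PCB-126 for 24. Of these 88 isogroups, 87 were members as well. No share over all isogroups is given for the highest or the lowest library, so nothing is read from these counts.

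The members also lay close together in the numbering of the table, which the rule did not use. Their median isogroup number was 106, where the median of all isogroups is 11366.5. Of the isogroups numbered 1 to 100, 48 were members, and 83 members had a number up to 1000. The sources used here do not say how the isogroups were numbered. The other 18 members, with numbers from above 1000 up to 19254, include isogroup18445, isogroup09118 and isogroup14253, which are 3 of the 4 most abundant. Over those 18 the median of the mean level was 151.3 reads per 100000, against 201.5 for the members with lower numbers, and the median highest to lowest ratio was 1.46 against 1.43.

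The members nearest to the minimum were isogroup16632, isogroup00154 and isogroup07604, each with 101 reads in its lowest library. Isogroup07604 had 118 and 158 reads in the SC pair and 128 and 101 in the NBH pair. Just outside were isogroup04714 (106 and 107 reads in the SC pair, 99 and 159 in the NBH pair), isogroup00306 (99 and 182, 98 and 165) and isogroup10788 (143 and 120, 106 and 98). Isogroup04714 and isogroup10788 fell short in 1 library and isogroup00306 in 2, by 1 or 2 reads, which is within counting error.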

How the data were processed

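The authors sent total RNA of 10-dpf embryos to a company, where 3'-anchored cDNA libraries were made from its polyadenylated RNA. These libraries, 1 per group, were non-normalized and were barcoded and pyrosequenced together. The deposited table gives raw counts, per the file headers of uniquely matching reads, so that transcripts with near-identical copies can lose reads. Neither the program that counted the reads of each isogroup nor the assembler that made the isogroups is given in the sources used here. BlastStation-Local and CAP3 served for a separate search of these reads with array probes, and Newbler for the libraries not analysed here. In all, 7 blank cells were read as 0. The 2 libraries of untreated embryos of 1 to 15 dpf were not analysed here.

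The sum of a library's counts served as its size. Shares and ratios have exact Clopper-Pearson intervals, and the ratio of ratios an interval from the noncentral hypergeometric distribution. On simulated data with known ratios, the intervals of 4085 simulated ratios of PCB-126 to DMSO in SC covered the true value in 97.1% of cases, and those of 200 simulated ratios of ratios in 95.5%. The simulated counts were Poisson draws without further variation between libraries. This coverage thus checks the computation for counting error only. No p-value was computed, because there is 1 library per group. Counts of members past a ratio are read beside the share of all isogroups of 10 or more reads in the pair. A ratio of 2 was the threshold. Transcript lengths were not used, since the libraries were 3'-anchored, and levels of different isogroups are compared as reads only.

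The named isogroups are the 10 of highest mean level, the 2 at each end of each ratio, of the highest to lowest ratio and of the ratio of ratios, and the 3 on each side of the minimum. Isogroup00010 was chosen after its values were seen. The members and rules were chosen with earlier results of these data known. Alternatives were TMM and DESeq2 library sizes, minimums of 50, 200 and 100 per 100000 reads, a ratio of 1.5 and 0.5 reads added to each count. Others were members and library totals without the 10 isogroups of most reads, and minimums of 30 and 200 reads for the background. TMM sizes came from edgeR 4.0.16 and size factors from DESeq2 1.42.0, under R 4.3.3. Intervals were computed with scipy 1.17.1 and tables with pandas 2.3.3 and numpy 2.4.6, under Python 3.11.15, and plots were drawn with matplotlib 3.10.9.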

Additional observations from a re-analysis of the deposited data

Results flagged for a closer look

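In 6 of the named members the ratio of PCB-126 to DMSO lay on one side of 1 in SC embryos and on the other in NBH embryos, with both counting intervals excluding 1. With 1 library per group, the difference was not tested. Over all 101 members, 7 were higher in SC and lower in NBH, and 3 the reverse. The background shares were 2.87% and 2.19% of the isogroups of 10 or more reads in each population, which mostly have fewer reads. Some named members were picked for extreme ratios, so such differences among them follow in part from the choice. Isogroup00385 had ratios of 1.29 in SC and 0.418 in NBH, isogroup00212 of 1.56 and 0.554, isogroup00066 of 1.39 and 0.648, and isogroup00179 of 1.32 and 0.739. In these 4 the PCB-126 library was the higher in SC and the lower in NBH. The reverse was seen for isogroup09118, with 0.850 in SC and 1.24 in NBH, and for isogroup13292, with 0.748 and 1.14, both among the 10 most abundant members.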

How the results depend on the processing

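With a minimum of 50 reads in each library 223 isogroups qualified and with 200 reads 43, so the size of the set follows the minimum. The share of the library was then 39.0% and 20.1% in SC embryos with DMSO, 37.5% and 18.9% in SC embryos with PCB-126, 40.1% and 21.0% in NBH embryos with DMSO and 38.4% and 19.7% in NBH embryos with PCB-126. The 10 isogroups of most reads over all libraries are members. With these left out of both the members and the library total, the share was 22.5%, 22.1%, 23.4% and 22.1% in the same order. With DESeq2 size factors the count of members at least 2-fold apart in SC went from 1 to 0. With a ratio of 1.5 the counts were 17 for treatment in SC, 12 for treatment in NBH, 11 for population with DMSO and 18 for population with PCB-126. With a minimum of 200 reads in each library, 0% of the members were 2-fold apart for treatment in NBH. The background share past a ratio of 2 fell with depth. With at least 30 reads in the pair it was 24.6% and 24.3% for treatment in SC and NBH and 25.9% and 25.6% for population with DMSO and PCB-126. With at least 200 reads, members included, it was 4.57%, 3.65%, 2.11% and 7.10%. With a minimum of 200 reads Spearman's rho fell to 0.746 between the SC libraries and to 0.809 between the NBH library with DMSO and the SC library with PCB-126. With a minimum of 50 reads it was 0.824 between the DMSO libraries, 0.817 between the NBH library with DMSO and the SC library with PCB-126 and 0.814 between the NBH libraries. The causes of these shifts were not tested beyond the depth and number of the isogroups that each setting takes in. Another 54 values stayed within 1.5 times (counts) or within the spread of the reported value. Even so, the lean of the interval counts in SC and with PCB-126 was kept with TMM but lost with DESeq2 size factors. The ratios of the named members in the 4 comparisons, 336 values under TMM, DESeq2 size factors and 0.5 added reads, stayed within their intervals. No paired analysis was possible because each group has 1 library. Depth limits the lowest members most, for which counting error alone gives a coefficient of variation of up to 9.28%.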

Other observations

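Beside the 101 members, 31 isogroups had 100 or more reads in 3 libraries, 41 in 2 and 52 in 1. Of the 31, 26 were under 100 reads in NBH with DMSO alone, the shallowest library, and 20 of these 26 had a level there of at least that of 100 reads in the deepest library. The isogroups with 100 or more reads in 1 library alone numbered 27 for SC with PCB-126, 14 for SC with DMSO, 10 for NBH with PCB-126 and 1 for NBH with DMSO. Members made up 90.2% of the isogroups with 100 or more reads in NBH with DMSO and 54.3% to 62.3% of those in the other libraries.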
